A study of Mus musculus with 8 samples.

Results

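Ank encodes a protein that mediates export of ATP and pyrophosphate from the cell. The genes described here are Ank and 7 further genes that make, break down or transport pyrophosphate and phosphate (Enpp1, Alpl, Slc20a1, Slc20a2, Xpr1, Ppa1 and Ppa2). They were matched by gene symbol, and all 8 were found among the 55157 genes of the deposited table. Ank was chosen by its measured FPKM values, because its 4 melatonin values lay above its 4 control values, so its difference between the groups is a description and carries no test. The other 7 were chosen for their place in the same pathway.

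The data are messenger RNA levels in type 7 to 8 follicles taken from ovaries of Kunming mice, an outbred stock, at postnatal day 21. Control libraries (n = 4) came from mice examined 24 hours after pregnant mare serum gonadotropin (PMSG) and normal saline. Melatonin libraries (n = 4) came from mice given PMSG and melatonin, with the same interval. PMSG acts like follicle-stimulating hormone, and because both groups received it, no follicle without gonadotropin was compared. The labels do not say whether a library is 1 animal or a pool, so the spread between libraries may be partly technical. By its title, the series asks what melatonin does for the nutrient stores and the mitochondria of oocytes.

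Pyrophosphate is released whenever nucleotides are joined to nucleic acids, sugars or amino acids, and soluble pyrophosphatases inside the cell split it into phosphate. Outside the cell, pyrophosphate binds to nascent calcium phosphate crystals and holds back mineral formation. ENPP1 makes it there from ATP, ANK (called ANKH in humans) mediates export of ATP and pyrophosphate from the cell, and tissue-nonspecific alkaline phosphatase, the product of Alpl, removes it. Phosphate itself enters cells through the sodium-coupled transporters PiT-1 and PiT-2 (Slc20a1 and Slc20a2) and leaves through XPR1. These roles are best known from bone, cartilage and vessel walls.

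Sequences before the transcription start are shown for the 3 genes with the highest melatonin minus control differences, Ank, Enpp1 and Slc20a1, so that their composition can be set side by side. Each is the 250 bases before a RefSeq start (GRCm38.p6), the first of 2 for Slc20a1, read 5′ to 3′ in the direction of transcription, in lower case. Capitals mark matches, on either strand, to 4 short motifs. The letters searched were TGACG for the core of the cAMP response element, CACGTG for an E-box, GGGCGG for a GC box and TATAAA for the TATA box.
Ank, chr15:27466427-27466676, plus strand: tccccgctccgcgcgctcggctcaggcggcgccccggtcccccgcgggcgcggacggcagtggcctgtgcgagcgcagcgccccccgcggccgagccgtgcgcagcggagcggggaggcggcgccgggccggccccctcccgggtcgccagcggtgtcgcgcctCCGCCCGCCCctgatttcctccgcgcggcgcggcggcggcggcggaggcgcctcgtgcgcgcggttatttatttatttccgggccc
Enpp1, chr10:24712160-24712409, minus strand: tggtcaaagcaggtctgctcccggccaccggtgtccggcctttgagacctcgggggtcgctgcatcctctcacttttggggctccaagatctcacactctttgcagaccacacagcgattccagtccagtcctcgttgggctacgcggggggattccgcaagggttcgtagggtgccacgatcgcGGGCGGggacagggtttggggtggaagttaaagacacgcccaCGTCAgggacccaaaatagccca
Slc20a1, chr2:129198523-129198772, plus strand: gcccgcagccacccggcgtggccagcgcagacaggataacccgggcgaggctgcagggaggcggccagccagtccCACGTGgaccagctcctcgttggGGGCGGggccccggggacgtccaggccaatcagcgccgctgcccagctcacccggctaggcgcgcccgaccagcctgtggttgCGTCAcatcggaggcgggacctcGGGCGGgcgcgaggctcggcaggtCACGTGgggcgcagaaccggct
The Ank window was 81.2% G and C, against 61.2% for Enpp1 and 75.2% for Slc20a1. It held 2 GC boxes on the reverse strand that overlap each other, and no match to the other motifs searched. Enpp1 had 1 cAMP response element core, in reverse 23 bases before the start, and 1 GC box. The Slc20a1 window shown had 1 such core, 2 E-boxes and 2 GC boxes. RefSeq gives Slc20a1 a second start, whose window (chr2:129206846-129207095) was 50.8% G and C and held 2 cores, 0 E-boxes and 1 GC box. RefSeq windows matched 7 of the 8 genes, Slc20a2 being the one named only. Among all 32851 windows of the same length, 17.8% held the cAMP response element core, 6.02% an E-box, 32.7% a GC box and 12.4% a TATA box, so each match shown is of a kind found in many genes. No match to one motif overlapped a match to another. A match describes the letters and not binding of a factor.

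Levels are in FPKM, the deposited unit, in which fragments are divided by exon length and scaled between libraries, so different genes are compared per length. The scaling followed the median ratio of genes between libraries more closely than the fragment totals. Between 17660702 and 22394651 fragments were assigned to genes in the control libraries, and between 18555606 and 23729040 in the melatonin libraries. Behind each value stood 509 to 998 fragments for Ank and 28 to 81 for Alpl, with 484 to 3319 for the other 6 genes. Marker genes of granulosa cells had higher summed FPKM in control (6960 to 8752) than in melatonin libraries (5927 to 6593). Most of these sums was the marker Inha, with means of 6597 and 5445 FPKM, so they describe mainly that gene. Of the 8 granulosa markers, 7 were lower on average with melatonin, and Nr5a2 was higher (means of 170.5 and 180.6 FPKM). The groups did not overlap in 2, Inha and Hsd17b1. In every other list the groups of each marker overlapped. For comparison, groups did not overlap in 11.7% of the 14738 genes tested below. Of those genes, 47.5% were higher with melatonin in mean log2(FPKM + 1). Theca markers summed to 54.1 to 61.5 and 32.4 to 58.4 (5 of 6 lower), and stromal fibroblast markers to 33.0 to 69.3 and 21.5 to 41.7 (5 of 5 lower). Oocyte markers summed to 270.4 to 433 and 259 to 343, with 7 of 8 lower. Smooth muscle, endothelial and leukocyte sums overlapped between the groups, with 4 of 5, 4 of 5 and 5 of 5 markers lower. Erythrocyte markers ran from 66.5 to 1545 without melatonin and from 125 to 479 with it (4 of 5 lower). Osteoblast and chondrocyte markers, for the cells in which these genes are best known, summed to only 0.371 to 0.652 and 0.273 to 0.738, and 0 of 6 reached a mean of 1 FPKM. No marker of any list was at 0 in all 8 libraries. Across genes, the deviation of a library from the mean of all libraries was related to GC content (Spearman rho -0.024 to 0.261 in control and -0.182 to -0.121 in melatonin) and to exon length (-0.107 to -0.048 and 0.024 to 0.115). Some differences below are also given after trends with GC content and exon length were removed in each library. What the marker shifts contribute to the differences was not tested. In such bulk samples, fewer cells of a type and less RNA per cell cannot be told apart.

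In the levels, Ppa1 and Slc20a1 stood first and second and Ppa2 and Alpl seventh and eighth in every one of the 8 libraries. Mean FPKM in control ran from 28.1 for Ppa1 down to 0.667 for Alpl. The test across all genes took the 14738 whose mean reached 1 FPKM. Ppa1 was above 86.7% of these, and Ank was above 58.8%. Alpl was below that level itself, so 7 of the 8 genes entered the test. Neighbours in the order whose ranges over the libraries overlapped were Slc20a2 and Ank, and Enpp1 and Ppa2, in control, and Ppa1 and Slc20a1, and Xpr1 and Enpp1, in melatonin. Within each library, Enpp1 was nevertheless above Ppa2 in all 8. The middle of the order differed between the groups, since Slc20a2 was above Ank in all 4 control libraries and below it in all 4 melatonin libraries. Since Ank was chosen for its higher melatonin values, nothing is read from this exchange.

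**Figure D1:**
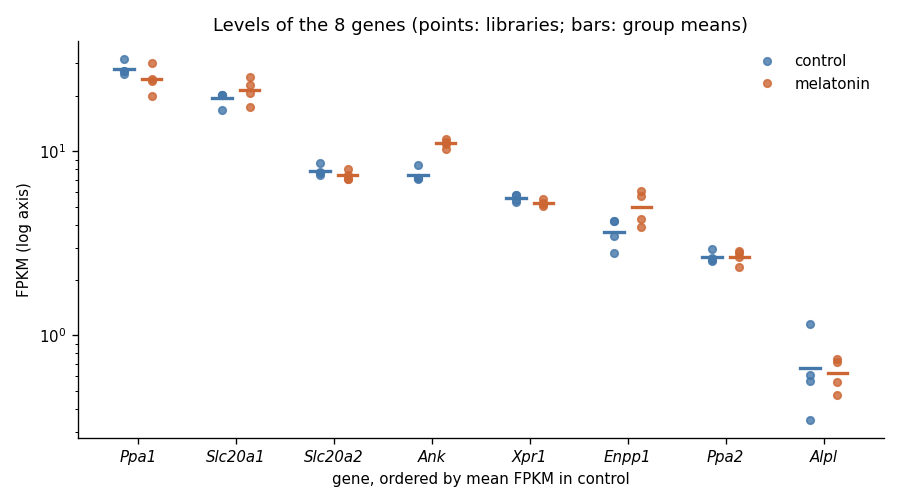
FPKM of the 8 genes on a log axis, ordered by their mean in control, with a point for each library and a bar for each group mean. Ppa1 and Slc20a1 lie at the top in both groups, Alpl lies near or below 1 FPKM, and Ank averages 7.44 FPKM in control and 11.03 in melatonin.

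The product of Ank mediates export of ATP and pyrophosphate. The gene lies on chromosome 15 (mm10, 27466677 to 27594909, plus strand), with 3610 bases of exon. The control libraries, replicates 1 to 4, had 7.04, 8.44, 7.15 and 7.13 FPKM, and the melatonin libraries had 11.7, 10.9, 11.2 and 10.3 FPKM. The lowest melatonin library exceeded the highest control library by 1.85 FPKM, as the choice of the gene required. The control mean was 7.44 ± 0.669 FPKM and the melatonin mean 11.03 ± 0.585 (SD, n = 4 each), a ratio of 1.48. In mean log2(FPKM + 1) the difference was 0.51, and it was 0.56 after trends with GC content and exon length were removed in each library. Of the 14738 genes tested, 318 (2.16%) had a positive log2 difference at least as large as that of Ank, itself included. The groups did not overlap in 111 of those. Of all tested genes, 5.79% were higher with melatonin without overlap.

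The 3′ part of Ank overlaps Otulin, a deubiquitinase gene read from the opposite strand (27542635 to 27630693). Whether strand was used in counting is not given in the sources used here, so reads of the shared stretch cannot be assigned with certainty. Otulin had 16.01 ± 0.883 FPKM without melatonin and 14.5 ± 0.779 with it (SD, n = 4 each), the opposite direction to Ank, and did not pass across all genes (limma adjusted p = 0.253). The nearest tested genes outside it on either side were Fbxl7, an F-box protein gene 571 kb away at lower coordinates, and Trio, a guanine nucleotide exchange factor gene 136 kb away at higher ones. Fbxl7 had 1.07 ± 0.0821 FPKM without melatonin and 1.08 ± 0.106 with it. Trio had 6.51 ± 0.494 and 8.15 ± 0.490 FPKM (SD, n = 4 each), with no overlap between the groups, and did not pass either (limma adjusted p = 0.123).

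**Figure D2:**
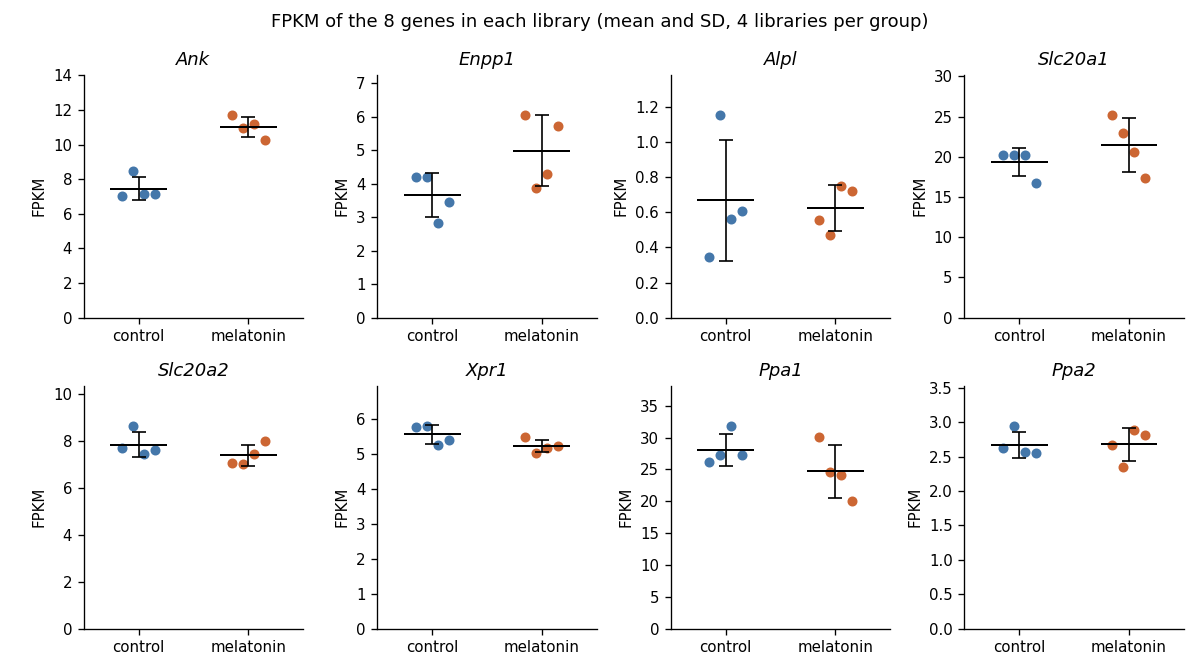
FPKM of each of the 8 genes in every library, with points in the order of replicates 1 to 4, the group mean and the SD (n = 4 per group); every axis starts at 0. The groups of Ank are apart by the rule that chose it, while those of the other 7 genes overlap.

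Enpp1 encodes the ectoenzyme that releases pyrophosphate from extracellular ATP (chromosome 10, 24637914 to 24712159, minus strand). Control replicates 1 to 4 had 4.19, 4.19, 2.82 and 3.46 FPKM, and melatonin replicates had 6.05, 3.88, 4.28 and 5.71 FPKM. Melatonin was higher in 14 of the 16 pairs of a melatonin with a control library, and 3 melatonin libraries exceeded the highest control library. Replicate 2 of melatonin fell short of it by 0.312 FPKM, so Enpp1 did not meet the rule that chose Ank. Slc20a1 also had 3 melatonin libraries above its highest control library. Means were 3.67 ± 0.662 and 4.98 ± 1.06 FPKM (SD, n = 4 each). The log2 difference was 0.35 ± 0.15 (SE, 95% interval 0.014 to 0.69), with an unadjusted p of 0.0428 and an adjusted p of 0.246 in limma's test across all genes. Enpp1 did not pass the threshold of 0.05.

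Alpl encodes the phosphatase that breaks down extracellular pyrophosphate (chromosome 4, 137741733 to 137796384, minus strand). It was the lowest of the 8 genes, at 0.347, 1.15, 0.563 and 0.608 FPKM in control and 0.556, 0.472, 0.748 and 0.722 FPKM in melatonin replicates 1 to 4. The groups overlapped throughout, and melatonin was higher in 8 of the 16 pairs. Control replicates 1 and 2 differed from each other beyond counting error, with exact Poisson 95% intervals, which cover counting error only, of 0.230 to 0.501 and 0.914 to 1.43 FPKM. The coefficient of variation was 51.3% in control and 21.2% in melatonin, where counting error alone gives 13.7% in both. In a limma fit of 34898 genes without the filter, the log2 difference was -0.019 ± 0.15 (SE, 95% interval -0.36 to 0.32) and the adjusted p 0.972. With this spread between libraries, differences of either sign inside that interval remain compatible with the values.

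Slc20a1, the gene of PiT-1 (chromosome 2, 129198764 to 129211616, plus strand), is the more abundant phosphate importer here. It was at 20.2, 20.2, 20.3 and 16.7 FPKM in control and at 25.2, 23.0, 20.6 and 17.3 FPKM in melatonin replicates 1 to 4. The melatonin libraries spread over most of the range of the data. Of these, 3 exceeded the highest control library, and replicate 4 lay below 3 of the control libraries. Means were 19.4 ± 1.74 and 21.5 ± 3.36 FPKM (SD, n = 4 each), with a log2 difference of 0.14 ± 0.11 (SE, 95% interval -0.12 to 0.39, limma adjusted p = 0.532). It came to 0.060 without melatonin replicate 1, 0.072 without control replicate 4 and 0.23 without melatonin replicate 4. Slc20a1 shares positions with a transcript of the opposite strand, 9830144P21Rik, which had a mean of 2.18 FPKM.

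Slc20a2, the gene of PiT-2 (chromosome 8, 22476788 to 22569612, plus strand), stayed within 7.03 to 8.64 FPKM in all 8 libraries. Control replicates had 7.69, 8.64, 7.45 and 7.61 FPKM and melatonin replicates 7.06, 7.03, 7.47 and 8.01 FPKM. The groups overlapped, with 2 melatonin libraries below the lowest control library. The log2 difference was -0.076 ± 0.063 (SE, 95% interval -0.22 to 0.068, limma adjusted p = 0.531). It was -0.034 without control replicate 2, the highest library. A transcript annotated inside an intron on the same strand, Gm17491, had a mean of 10.8 FPKM. Smim19, a protein-coding gene of the opposite strand (22462614 to 22476882), overlaps the 5′ end of Slc20a2 and had a mean of 15.8 FPKM.

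Xpr1 encodes the phosphate exporter (chromosome 1, 155275701 to 155417415, minus strand) and varied least of the 8 genes, with a coefficient of variation of 5.16% over all libraries. Control replicates were at 5.79, 5.80, 5.27 and 5.41 FPKM and melatonin replicates at 5.48, 5.04, 5.18 and 5.23 FPKM. In 3 melatonin libraries the value lay below every control library, and in the other, replicate 1, it lay inside the control range. The log2 difference was -0.075 ± 0.053 (SE, 95% interval -0.20 to 0.047, limma adjusted p = 0.468). With 17880 bases of exon it is the longest of the genes, and after trends with GC content and exon length were removed in each library the difference was -0.19 (adjusted p = 0.148).

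Ppa1, the cytosolic pyrophosphatase gene (chromosome 10, 61648552 to 61674168, plus strand), was the most abundant of the 8 genes. It had 26.1, 27.3, 31.8 and 27.2 FPKM in control and 30.1, 24.7, 24.1 and 19.97 FPKM in melatonin replicates 1 to 4. Melatonin was lower in most pairs, and 3 melatonin libraries lay below the lowest control library, but replicate 1 of melatonin was the second highest of all. Means were 28.1 ± 2.52 and 24.7 ± 4.16 FPKM (SD, n = 4 each). The log2 difference was -0.19 ± 0.12 (SE, 95% interval -0.45 to 0.075, limma adjusted p = 0.405). It was -0.095 without melatonin replicate 4 and -0.285 without melatonin replicate 1.

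Ppa2, the mitochondrial pyrophosphatase gene (chromosome 3, 133310110 to 133378235, plus strand), was much lower than Ppa1. Its control replicates had 2.62, 2.94, 2.57 and 2.55 FPKM and its melatonin replicates 2.66, 2.35, 2.89 and 2.81 FPKM. Neither group was the higher one, since the means were 2.67 ± 0.185 and 2.68 ± 0.236 FPKM (SD, n = 4 each). The log2 difference was 0.0022 ± 0.075 (SE, 95% interval -0.17 to 0.17, limma adjusted p = 0.991), an interval that still holds changes of that size in either direction.

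The tested genes of the pathway went in both directions. With limma, 0 of the 14738 genes passed an adjusted p of 0.05, a background of 0%, and an unadjusted p under 0.05 was found for 2821, or 19.1%. Of these 1385 were higher (9.4% of tested genes) and 1436 lower (9.74%) with melatonin. A limma-voom fit on recovered fragments also called 0, with 2739 at an unadjusted p under 0.05. With libraries scaled to their fragment totals instead, 1644 of 2740 such genes were higher. The groups did not overlap in 11.7% of tested genes, 5.79% higher and 5.94% lower. Among the 8 genes, Ank alone had groups that do not overlap, which its choice fixed and from which nothing is read. Of the 6 other tested genes, Enpp1 was the single one with an unadjusted p under 0.05. In limma this was lost after quantile normalization (unadjusted p = 0.0588), with array weights (0.0761), after removal of GC content and length trends (0.0529), and without control replicate 3 or 4 or melatonin replicate 1 or 4 (0.0856 to 0.115). Enpp1 stayed under 0.05 in the other settings that tested it, with limma unadjusted p from 0.0170 (without melatonin replicate 2) to 0.0482 (without the filter). Xpr1 had a limma unadjusted p of 0.00258 after removal of GC content and length trends. Ppa1 had 0.0186 without melatonin replicate 1, and Slc20a1 had 0.0385 without melatonin replicate 4. Across these 6, Enpp1, Slc20a1 and Ppa2 had positive log2 differences and Slc20a2, Xpr1 and Ppa1 negative ones, the sign of Ppa2 changing between settings. The median over all tested genes was -0.0099.

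The FPKM ratio of 2 genes within a library does not depend on a factor by which the whole library was scaled. The amount of Enpp1 relative to Alpl, the maker and the remover of extracellular pyrophosphate, was 12.1, 3.64, 5.01 and 5.69 in control and 10.9, 8.22, 5.72 and 7.91 in melatonin replicates 1 to 4. Control replicate 1, where Alpl was lowest, had the highest ratio of all. The difference in the mean log2 ratio, computed from FPKM + 1, was 0.37 (two-sided exact permutation p = 0.114). With 1 added, the tested ratio does depend somewhat on library scaling, most where a gene is low, as Alpl was. On that log2 scale melatonin replicate 1 was highest at 2.18, against 1.95 in control replicate 1. With a pseudocount of 0.1 the difference was 0.43 (exact permutation p = 0.257). Slc20a1 exceeded Slc20a2 by 2.20 to 2.72 times in control and 2.16 to 3.56 times in melatonin (log2 difference 0.21, exact permutation p = 0.286). That difference was 0.12 without melatonin replicate 1 and 0.34 without melatonin replicate 4 (exact permutation p = 0.0286, adjusted p = 0.0857). Ppa1 exceeded Ppa2 by 9.26 to 12.3 times and 7.10 to 11.3 times (log2 difference -0.19, exact permutation p = 0.286). It was -0.080 without melatonin replicate 4, -0.12 without control replicate 3, -0.29 without melatonin replicate 1 and -0.11 after quantile normalization. Adjusted over the 3 ratios, p was 0.286 for each, and the smallest exact p that 4 against 4 libraries allow is 0.0286. The groups overlapped in all 3 ratios.

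**Figure D3:**
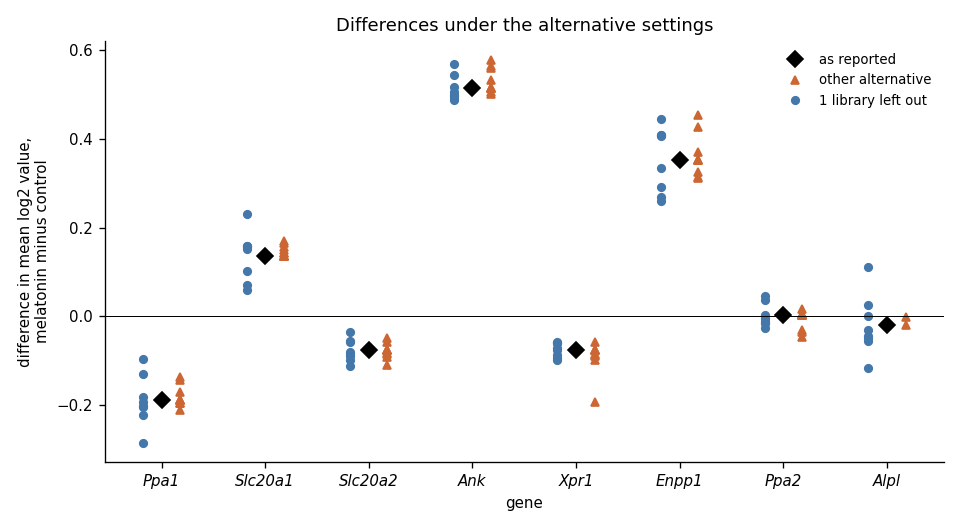
Difference in mean log2 value between melatonin and control for each of the 8 genes, as reported (diamonds), with 1 library left out (circles) and under the other alternatives (triangles). Ank stays between 0.49 and 0.58, Enpp1 between 0.26 and 0.45, and Ppa2 and Alpl lie on either side of 0. With 1 library left out, the sign for Ank is fixed by the rule that chose it.

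Other genes of phosphate and pyrophosphate handling were taken from 6 lists by role, 58 genes in all, of which 33 reached a mean of 1 FPKM. With limma, 0 of the 33 passed across all genes, and 3 were higher and 4 lower at an unadjusted p under 0.05, against 19.1% of all tested genes. The groups did not overlap in 4 genes, or 12.1%, close to the 11.7% of all tested genes, so the lists do not stand apart by that count. The median log2 difference was -0.060, against -0.0099 over all tested genes. It lay nearer to 0 in every fit that left out 1 library, from -0.043 without melatonin replicate 1 to -0.015 without control replicate 2.

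Stc1 showed the largest log2 difference in size of the 33. It encodes stanniocalcin-1, a secreted glycoprotein first known from fish as a regulator of calcium and phosphate. Control replicates had 4.77, 5.32, 4.21 and 4.69 FPKM and melatonin replicates 3.20, 3.71, 2.22 and 2.79 FPKM. All melatonin libraries lay below all control libraries, with a log2 difference of -0.54 ± 0.12 (SE, limma adjusted p = 0.121). Among the other 13 genes of hormonal control, Phex, an endopeptidase gene whose loss causes phosphate wasting, averaged 23.9 ± 4.94 FPKM without and 32.3 ± 6.59 with melatonin (SD, n = 4 each; limma adjusted p = 0.271). Fam20c, a kinase gene for secreted proteins that include FGF23, had 18.8 ± 7.75 and 13.3 ± 2.10 FPKM (SD, n = 4 each; limma adjusted p = 0.381). Its highest value was 30.01 FPKM in control replicate 3, and its log2 difference of -0.40 was -0.16 without that library. The hormone gene Fgf23 itself, its co-receptor gene Kl and the vitamin D receptor gene Vdr were below 1 FPKM.

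In the list of phosphatases and nucleotidases, 4 of 4 tested genes were negative, 7 of the 11 being below the filter. Of the 4, 1 had groups that do not overlap. The list does not part enzymes that act outside the cell from those inside it, so no direction is read for extracellular enzymes. Over all tested genes, 47.5% were positive. Entpd6, a nucleoside diphosphatase gene, had 14.9, 15.5, 16.7 and 12.3 FPKM in control and 11.0, 11.5, 12.0 and 11.5 FPKM in melatonin replicates 1 to 4. Its groups did not overlap, by a small margin against control replicate 4 (log2 difference -0.33 ± 0.084 SE, limma adjusted p = 0.142). Entpd1, the gene of CD39, which removes extracellular ATP, had 8.84 ± 1.27 and 8.02 ± 1.24 FPKM. In the list of ATP release and of Enpp1 relatives that cleave nucleotides or lipids, 3 of 6 tested genes were positive. Panx1, a channel gene for ATP release, had 7.84 ± 0.512 and 7.30 ± 0.891 FPKM, and Enpp5, a relative of Enpp1, had 13.2 ± 0.665 and 13.7 ± 1.09 FPKM (SD, n = 4 each).

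Among phosphate transporters of other families, the kidney and gut type, Slc34a1, Slc34a2 and Slc34a3, was below the filter. Slc25a3, the mitochondrial phosphate carrier gene, had 79.8, 76.9, 77.4 and 82.7 FPKM in control and 65.8, 74.1, 70.4 and 75.3 FPKM in melatonin replicates 1 to 4. These groups do not overlap (log2 difference -0.15 ± 0.054 SE, limma adjusted p = 0.202), and the difference was -0.068 after quantile normalization. Slc25a24, a carrier gene for ATP-magnesium and phosphate, had 17.2 ± 3.46 and 17.7 ± 2.39 FPKM.

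All 12 enzymes of inositol pyrophosphates and polyphosphates, of which the inositol pyrophosphates are known to regulate XPR1, passed the filter. Their median log2 difference was 0.025, with 7 positive and 5 negative. Ppip5k2, a kinase gene that completes these molecules, had 5.38, 5.37, 5.22 and 4.83 FPKM in control and 5.58, 5.43, 5.66 and 5.54 FPKM in melatonin replicates 1 to 4. The groups did not overlap, but the log2 difference was small at 0.081 ± 0.052 (SE, limma adjusted p = 0.423) and turned to -0.030 after trends with GC content and exon length were removed. Minpp1 and Nudt4, genes of enzymes that take phosphates off these molecules, had 40.1 ± 1.18 and 37.0 ± 1.70 FPKM, and 40.7 ± 3.23 and 39.0 ± 3.84 FPKM. Of the proteins that bind mineral or hold back calcification, Mgp had 21.5 ± 3.71 and 23.6 ± 4.49 FPKM. Ggcx, the carboxylase gene needed to activate the product of Mgp, had 17.7 ± 0.877 and 18.3 ± 0.485 FPKM (SD, n = 4 each).

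**Figure D4:**
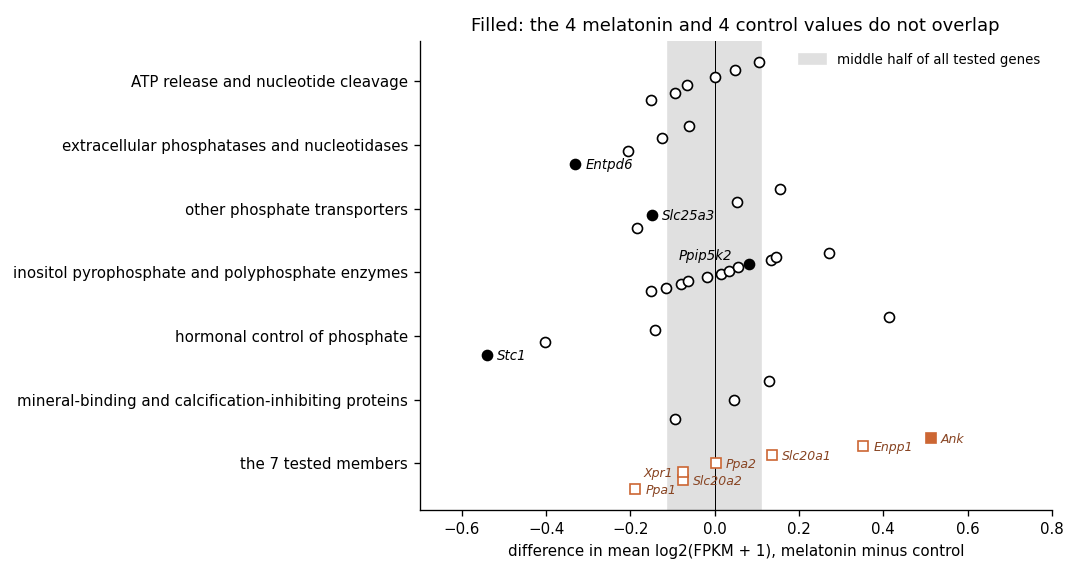
Difference in mean log2(FPKM + 1), melatonin minus control, for the 33 tested genes of the 6 lists (circles) and the 7 tested genes of the main group (squares), with filled symbols where the 4 melatonin and 4 control values do not overlap. The grey band runs from the lower to the upper quartile of all 14738 tested genes, -0.11 to 0.11; Stc1 lies lowest at -0.54 and Ank highest at 0.51.

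Genes with a profile like that of Ank were ranked by the mean absolute difference of log2(FPKM + 1), centred on the mean of the 8 libraries, between each gene and Ank. Over all other tested genes the median of this distance was 0.278. The closest was Rufy4, a gene of a RUN and FYVE domain protein, at 0.0489, with 2.10 ± 0.393 FPKM without melatonin and 3.40 ± 0.399 with it (SD, n = 4 each). Next came Gm15775, an antisense transcript, at 0.0632, Ppm1e, a protein phosphatase gene, at 0.0732, and Slc9b2, a sodium and proton antiporter gene, at 0.0738. Gm21811, an unprocessed pseudogene, followed at 0.0782; its reads may come in part from related genes. Gm15775 rested on 15 to 35 fragments per library. Within the pathway, the distance was 0.188 for Slc20a1, 0.190 for Enpp1, 0.255 for Ppa2, 0.294 for both Xpr1 and Slc20a2, and 0.351 for Ppa1. Because the profile of Ank carries the group difference it was chosen for, no likeness within the pathway is read from these distances. Since Ank separates the groups by choice, genes close to it do so too, in 5 of 5 cases here.

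**Figure D5:**
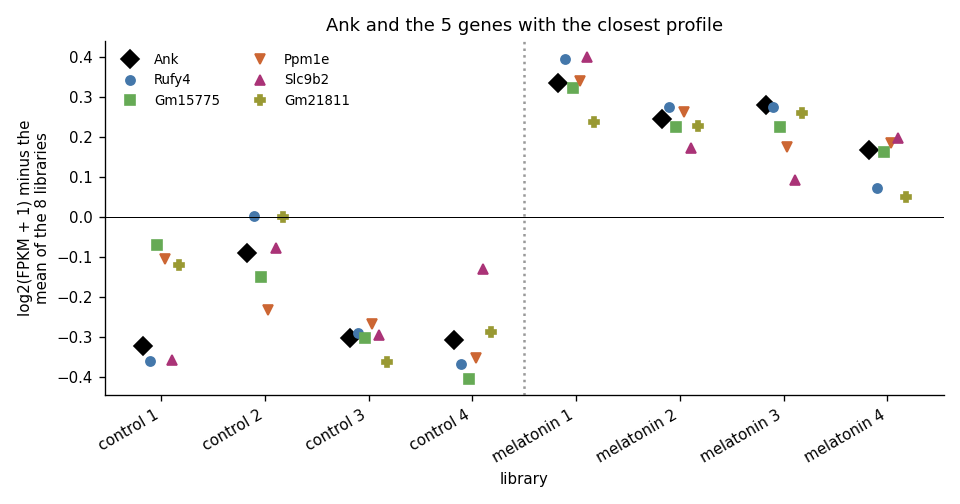
Log2(FPKM + 1) minus the mean of the 8 libraries for Ank and the 5 genes with the smallest mean absolute difference from it, with a symbol for each gene and the groups parted by a dotted line. The melatonin libraries of all 6 genes lie above 0, and among the control libraries Ank is highest in replicate 2.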

How the data were processed

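Messenger RNA of 8 follicle libraries was sequenced after Trizol extraction and NEBNext Ultra library preparation, per the labels' protocols. The submitters' processing notes name HISAT2 2.0.5 and the mm10 genome. How reads were counted, with which annotation, and whether by strand is not given in the sources used here. FPKM per gene are what the authors deposited, per the file headers, and the series table differed from the 8 sample files in 0 values. Median-ratio factors computed from the deposited FPKM were 1.006 in all 8 libraries, so the values already carry such a scaling. GENCODE M21 gave exon lengths (mm10) for 54409 of 55157 identifiers, and with them 98.8% of values of up to 30 fragments were whole within 0.05 fragments. Depth was taken from these recovered fragments.

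All 8 libraries entered limma 3.58.1 (R 4.3.3; empirical Bayes with intensity trend) on log2(FPKM + 1), with group as the single term. The filter, a mean of 1 FPKM or more, left 14738 genes, and p-values were adjusted by Benjamini-Hochberg, with a threshold of 0.05. Fold changes on this scale understate those of low genes. For ratios, exact permutation over 70 assignments gave two-sided p-values. Alternatives were quantile and median-ratio scaling, filters of 0 and 5 FPKM, a pseudocount of 0.1, no trend, array weights, the replicate number as a block, removal of GC content and length trends, limma-voom on recovered fragments and leaving out each library. Scaling to fragment totals was added after seeing the data.

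Genes named are the 8, the 2 most abundant tested genes of each other list and each gene there without overlap between groups, the 5 nearest to Ank and its nearest tested neighbours. Otulin, 9830144P21Rik, Gm17491, Smim19, Fgf23, Kl, Vdr, the Slc34a genes and the markers Inha, Hsd17b1 and Nr5a2 were added after their values were seen. The genes and lists were chosen with earlier results of these data known. Python 3.11.15, numpy 2.4.6, pandas 2.3.3, scipy 1.17.1 and matplotlib 3.10.9 made tables and plots.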

Additional observations from a re-analysis of the deposited data

Results flagged for a closer look

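Single libraries stood apart from the other 3 of their group in 3 of the 64 groups of 4 values examined. Chance flags about 1 in 20, a rate close to that seen here, so nothing is read from the count. The control library of replicate 2 had the highest Ank value of its group, 8.44 FPKM, while the next was 7.15 FPKM. Control replicate 4 had 16.7 FPKM of Slc20a1, and the next lowest control value was 20.2 FPKM. The pseudogene Gm21811 had 42.9 FPKM in melatonin replicate 4, with the next lowest value of its group at 48.6 FPKM. Without control replicate 2 the log2 difference of Ank was 0.57 in place of 0.51.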

How the results depend on the processing

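The 8 genes kept their direction under the settings tried, except Ppa2 and, when single libraries were left out, Alpl (-0.115 to 0.11). By its choice, Ank could not change direction when 1 library was left out, so nothing is read from it. Several settings could not move these log2 differences, namely median-ratio scaling (a factor of 1.006 in every library), the filters, no trend and the replicate block. Ppa2 had a log2 difference of -0.036 after quantile normalization, -0.030 with array weights and -0.046 after removal of GC content and length trends. Leaving out 1 library at a time gave values from -0.025 to 0.046 for Ppa2, and none of the 6 tested genes beside Ank passed an adjusted p of 0.05 under any setting. Among the other named genes, Ppip5k2 was -0.030 after that removal, and Slc25a24 ranged from -0.072 (without control replicate 3) to 0.157 with 1 library left out, and was -0.033 without melatonin replicate 4. The cause was not tested. Over all genes, 1 passed without the filter and 0 to 1 when a library was left out, the 1 being without control replicate 1. At a filter of 5 FPKM, 8855 genes were tested, and 789 of the 2006 with a limma unadjusted p under 0.05 were higher. This was a share of 39.3%, against 49.1% at the filter of 1 FPKM, so at the higher filter more of them were lower with melatonin. Genes whose groups do not overlap numbered 2024 to 3019 over all genes and 4 to 11 in the other pathway lists when 1 library was left out, with fewer values in a group that could overlap; the highest counts were without control replicate 4. With the replicate number as a block, 0 genes passed and 2776 had an unadjusted p under 0.05, and the log2 differences were unchanged by construction. Same-numbered libraries deviated together little or not at all (correlations of -0.103 to 0.151). In replicate 3 the correlation of 0.151 exceeded those with other-numbered melatonin libraries (at most -0.049), while in replicates 1, 2 and 4 it did not. The labels state no pairing, and such correlations cannot show whether the numbers pair the samples. For the ratios, the exact sign-flip test over 4 pairs gave p from 0.125, its smallest possible value, to 0.5. Quantile, median-ratio and GC and length settings gave no value for Alpl or its ratio. For Alpl, the spread between control libraries limits what can be seen more than its fragment numbers do. The median of the other pathway genes was -0.026 with array weights and -0.0024 without the filter.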
